A study of Mus musculus with 16 samples.

Results

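Glycolysis and hypoxia response genes were followed as 1 group of 36 genes: the sugar and lactate transporters Slc2a1 and Slc16a3, the enzymes from hexokinase to lactate dehydrogenase, and targets and regulators of the hypoxia-inducible factor HIF1. The members were chosen by gene name, and all 36 were found among the 20490 genes of the table. Levels are given in RPKM, reads per kilobase of gene scaled to the depth of the library, so that levels of different genes can be set side by side. Of the 36 members, 34 reached 1 RPKM in 2 or more libraries and were among the 10365 genes tested, while Egln3 and P4ha2 did not reach it in 2 libraries.

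The cells were RAW264.7, a mouse macrophage line that can turn into osteoclasts. Once attached for 12 h, the cells were given extracellular vesicles of PC3M, a metastatic human prostate cancer line, at 30 µg/mL (EV), the osteoclast-inducing cytokine RANKL at 10 ng/mL, EV and RANKL at these doses together (EV+RANKL), or phosphate-buffered saline (PBS), and were harvested at 72 h or 48 h. Each of the 8 groups had 2 libraries (n = 2 per group throughout), and all groups shared the line and the serum-containing medium. Whether replicate libraries stem from separate cultures is not in the labels, and the p-values describe the variation among the libraries as sequenced, which may be technical.

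Glycolysis breaks glucose down to pyruvate in the cytosol, and lactate dehydrogenase turns pyruvate into lactate, which leaves the cell through monocarboxylate transporters. HIF1 is a pair of proteins whose HIF1A subunit is marked for destruction by oxygen-dependent prolyl hydroxylases (the Egln genes), so that it accumulates mainly when oxygen is low. It then binds the short DNA motif ACGTG or GCGTG near its targets, among them most glycolytic genes, and macrophages and osteoclasts both use this programme. Control of HIF1A acts largely on the protein, which was not measured here.

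The libraries had an estimated depth of 18.4M to 20.0M reads, at which 3 reads in a transcript of 1 kb are worth 0.15 to 0.163 RPKM. In 5 libraries of 72 h (both EV, both EV+RANKL and RANKL replicate 2), ribosomal protein genes made up 11.0% to 11.5% of the RPKM sum, against 8.20% to 9.81% in the other 11. The 10 listed macrophage markers summed to 2054 to 3212 RPKM in the libraries with RANKL and 5722 to 7868 RPKM in those without it. Lyz2 (lysozyme) was the most abundant gene in this sum, with 719 to 1822 RPKM and 3975 to 6084 RPKM in turn. Of the 9 macrophage markers tested, 2 were lower and 1 was higher in RANKL against PBS at 72 h, with a median log2 change of -0.07. At 48 h 6 were lower and 1 was higher with RANKL (median -0.77). Of all genes, 9.13% were called lower and 9.73% higher at 72 h, and 8.29% and 6.47% at 48 h. With EV+RANKL against PBS, 7 markers were lower and 1 higher at 48 h (-0.97), and 3 lower and 2 higher at 72 h (-0.27). Of all genes, 10.9% were then lower and 11.2% higher at 48 h, and 22.1% and 19.9% at 72 h. The 10 listed osteoclast markers summed to 97.0 to 126 RPKM in EV, 456 to 836 RPKM in RANKL, 1097 to 1604 RPKM in EV+RANKL and 18.6 to 19.4 RPKM in PBS cells at 72 h, and to 83.7 to 92.5, 280 to 298, 490 to 634 and 17.5 to 19.2 RPKM in the same groups at 48 h. Mitochondrial genes made up 19.3% to 26.9% of the RPKM sum. Of 10 epithelial or carcinoma markers 4 were in the table, with Epcam highest at 0.0499 RPKM. Of 10 stromal and bone-forming markers 6 were in the table, with Runx2 highest at 0.867 RPKM, and of 12 markers of other blood cells 7, with Pf4 highest at 6.30 RPKM. None of the listed epithelial or stromal markers reached 1 RPKM. In such bulk RNA, fewer cells of a type and less RNA per cell cannot be told apart.

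The promoter windows of 4 members are shown because most of the group are known HIF targets. Bnip3 and Ankrd37 are targets with some of the widest ranges over the libraries, Ldha is a main enzyme, and Hif1a encodes a subunit of the factor itself. The windows run from 250 bases before to 50 after the annotated start, were taken from RefSeq on GRCm38.p6 and are written 5′ to 3′ on the gene's strand. Capitals mark ACGTG or GCGTG on either strand, that is also CACGT or CACGC, and CACGTG counts as 2 overlapping matches.
Bnip3, chr7:138909457-138909756, minus strand: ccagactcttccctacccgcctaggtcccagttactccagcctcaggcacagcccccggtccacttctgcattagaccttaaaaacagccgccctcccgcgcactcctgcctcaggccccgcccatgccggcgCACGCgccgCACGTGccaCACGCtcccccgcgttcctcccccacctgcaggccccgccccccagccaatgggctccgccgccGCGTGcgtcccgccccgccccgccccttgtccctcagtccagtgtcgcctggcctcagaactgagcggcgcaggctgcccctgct
Ankrd37, chr8:45999801-46000100, minus strand: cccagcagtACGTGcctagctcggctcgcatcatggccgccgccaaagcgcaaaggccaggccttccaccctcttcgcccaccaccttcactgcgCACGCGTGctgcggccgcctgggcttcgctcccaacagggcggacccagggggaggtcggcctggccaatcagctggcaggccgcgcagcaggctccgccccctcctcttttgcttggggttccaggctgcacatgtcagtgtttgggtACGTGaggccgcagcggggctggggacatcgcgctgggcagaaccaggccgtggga
Ldha, chr7:46845554-46845853, plus strand: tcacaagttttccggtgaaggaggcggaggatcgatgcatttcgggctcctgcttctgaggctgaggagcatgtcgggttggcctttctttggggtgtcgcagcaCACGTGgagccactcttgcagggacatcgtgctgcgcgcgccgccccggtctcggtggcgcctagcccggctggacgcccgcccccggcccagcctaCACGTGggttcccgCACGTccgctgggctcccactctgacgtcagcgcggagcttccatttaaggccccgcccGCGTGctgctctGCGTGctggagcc
Hif1a, chr12:73907617-73907916, plus strand: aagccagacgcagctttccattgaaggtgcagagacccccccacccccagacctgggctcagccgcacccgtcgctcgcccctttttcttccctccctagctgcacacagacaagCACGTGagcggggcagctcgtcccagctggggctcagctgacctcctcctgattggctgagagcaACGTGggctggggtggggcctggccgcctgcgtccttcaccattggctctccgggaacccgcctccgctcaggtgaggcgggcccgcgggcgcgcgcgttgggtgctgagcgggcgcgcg
The Bnip3 window held 5 matches, the Ankrd37 window 4, the Ldha window 7 and the Hif1a window 3. A window was found for 34 of the 36 members, Ero1l by its synonym Ero1a, and Bnip3l and Ndrg1 had none in the table of windows. Of these 34 members, 31 (91.2%) held a match in at least 1 window, against 46.7% of 27025 genes. By window, 42 of 53 member windows (79.2%) held a match, against 43.8% of all 32851 windows of the same length. The windows of Eno2, Gpi1 and Tpi1 held none. Windows were not matched for base composition, and a match describes letters only, not binding.

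**Figure D1:**
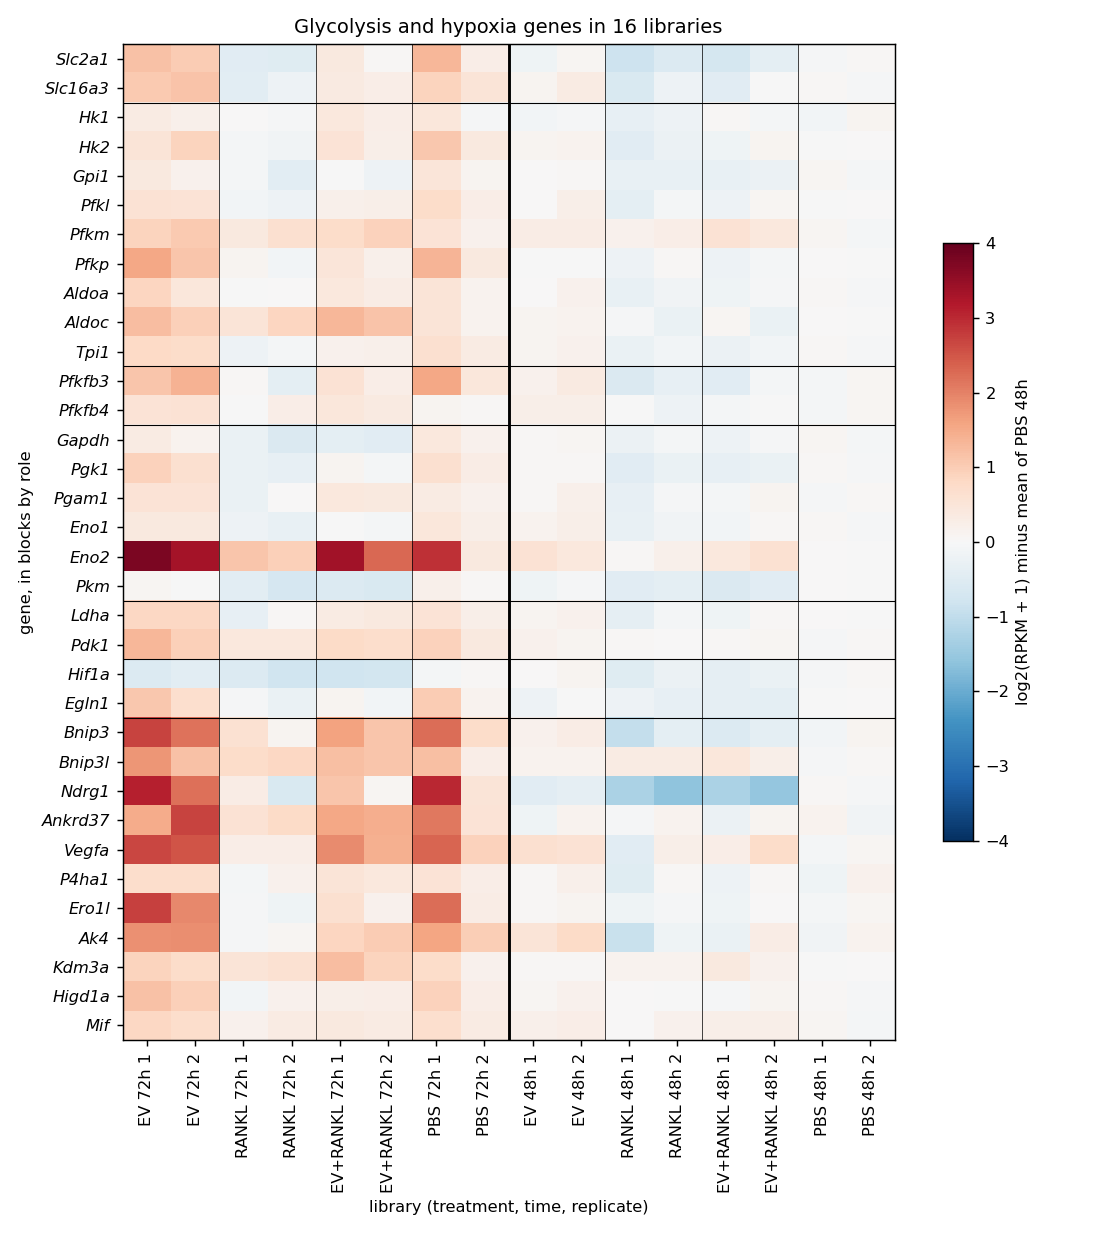
Level of the 34 tested genes in 16 libraries, as log2(RPKM + 1) minus the mean of the 2 PBS libraries of 48 h, with genes in blocks by role and libraries of 72 h left of the thick line. The HIF target block at the bottom is red in both EV libraries of 72 h and in PBS replicate 1 of 72 h, and paler in the RANKL libraries.

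The members differed among themselves in how far they ranged. The enzymes Gpi1, Pgam1, Eno1 and Pkm, the hexokinase Hk1, the cytokine Mif and Hif1a spanned only 1.71- to 1.92-fold between their lowest and highest library. Pkm, pyruvate kinase, was the most abundant with 1428 to 2584 RPKM, followed by Gapdh with 777 to 1555 RPKM. Several HIF targets ranged far wider. Eno2, the neuronal enolase and a HIF target, spanned 0.218 to 15.9 RPKM (72.6-fold), Ndrg1, a stress-response gene, 2.35 to 87.3 RPKM (37.2-fold), and Vegfa, the blood vessel growth factor, 0.877 to 15.3 RPKM (17.5-fold). Ankrd37 spanned 14.6-fold, the mitophagy receptor Bnip3 13.8-fold, the mitochondrial adenylate kinase Ak4 9.0-fold and the endoplasmic reticulum oxidase Ero1l 7.93-fold. The widest range among the remaining tested members was the 6.01-fold of Pfkfb3, which makes the activator of phosphofructokinase.

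The PBS libraries of 72 h differed strongly from each other in these genes, and this touches each comparison that uses them. It also enters the standard errors of the other comparisons, through the variance that the fit shares over all groups. Ndrg1 was at 83.2 RPKM in replicate 1 and 13.7 RPKM in replicate 2, Ero1l at 103 and 25.9 RPKM, Bnip3 at 104 and 35.4 RPKM, Vegfa at 12.0 and 3.85 RPKM, and Eno2 at 8.35 and 0.642 RPKM. Replicate 1 was higher in 33 of 34 tested members, with a median difference of 0.48 on the log2 scale. Hif1a was the exception, with 25.0 RPKM in replicate 1 and 26.8 RPKM in replicate 2. A difference of at least 0.5 with replicate 1 on top was found for 16 of 34 members, while 3.15% of all genes tested passed the same mark. In the same direction 4 members passed it in EV cells at 72 h (3.57% of all genes), 1 in RANKL cells at 72 h (2.99%), 3 in EV+RANKL cells at 72 h (1.17%) and 0 in each group of 48 h. With replicate 2 on top, 4 members passed it in RANKL cells at 48 h (79 of 10365 genes) and 1 in EV cells at 72 h (503 genes). In EV+RANKL cells at 48 h 1 passed it (71 genes), and 0 did in the other groups (44 to 572 genes). The median differences of these 7 groups lay between -0.15 and 0.14. The 2 libraries also differed in ribosomal protein genes, with 9.81% of the RPKM sum in replicate 1 and 8.64% in replicate 2, and the part of this in the result was not tested.

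**Figure D2:**
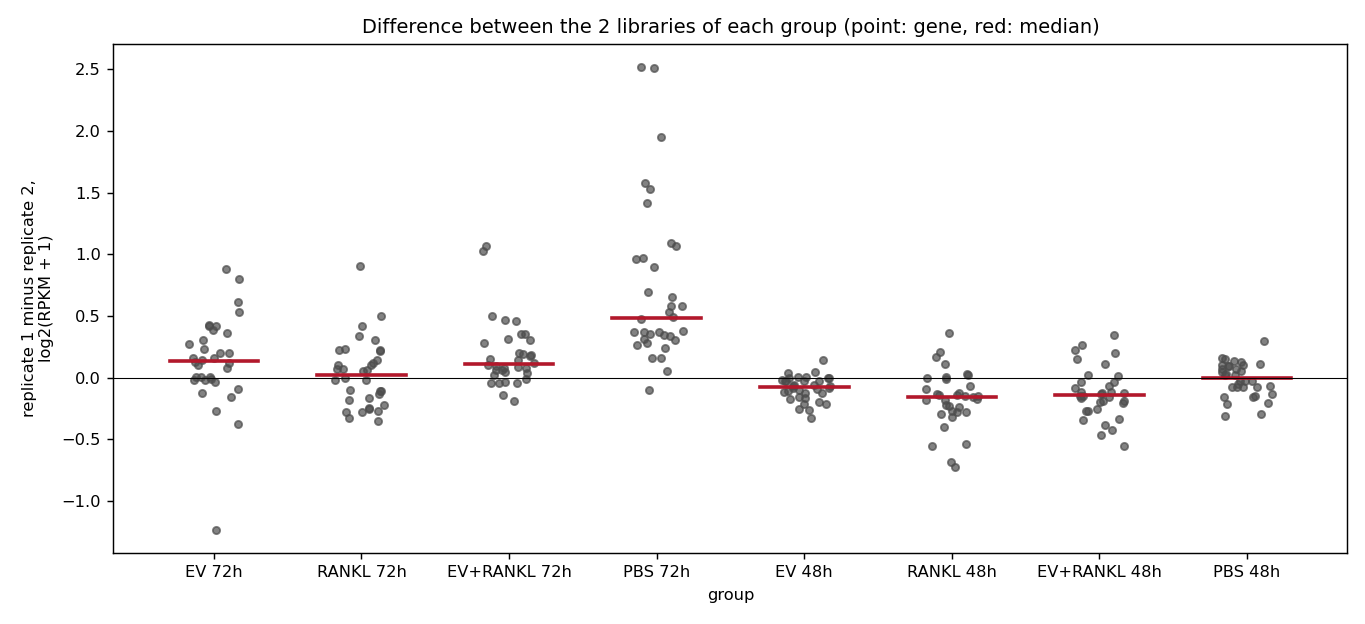
Difference between replicate 1 and replicate 2 in log2(RPKM + 1) for the 34 tested genes in each of the 8 groups, with the median in red. PBS at 72 h stands out with a median of 0.48 and single genes up to 2.52, while the medians of the other 7 groups lie between -0.15 and 0.14.

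In cells with vesicles alone, most of the group rose between 48 h and 72 h. Of 34 members 28 were higher and 1 was lower at 72 h than at 48 h, where 32.3% of all genes were called in either direction, 17.4% as higher and 14.9% as lower. The median log2 change of the members was 0.74, against 0.02 for all genes. The further HIF targets had the highest median of the roles, 1.34, and all 11 tested genes of that role rose. In PBS cells the same role had a median change of 1.27 over time. Relative to the mean of the PBS libraries of 48 h, its median was 1.58 in PBS replicate 1 of 72 h and 0.32 in replicate 2. Both EV libraries of 72 h had a high share of ribosomal protein genes and neither of 48 h did. Time and this division therefore cannot be told apart in EV cells, and the same holds for EV+RANKL.

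Bnip3 was at 144 and 99.4 RPKM in EV cells at 72 h, against 23.8 and 26.0 RPKM at 48 h. Its log2 change was 2.22 ± 0.38 (standard error, limma adjusted p = 0.00346). Vegfa was at 15.3 and 13.8 RPKM at 72 h, against 3.0 and 2.87 RPKM at 48 h (1.98 ± 0.35, limma adjusted p = 0.00371). The 2 times did not overlap in either gene. Bnip3l, a mitophagy receptor related to Bnip3, rose by 1.34 ± 0.24 and Higd1a, a small mitochondrial protein, by 0.94 ± 0.17. Ndrg1 was at 87.3 and 46.9 RPKM at 72 h, against 6.51 and 6.96 RPKM at 48 h (3.07 ± 0.61, limma adjusted p = 0.00505). Ero1l was at 145 and 83.2 RPKM at 72 h, against 21.6 and 22.5 RPKM at 48 h. Ankrd37 had its replicates in the opposite order, at 5.41 and 14.1 RPKM at 72 h, against 1.04 and 1.56 RPKM at 48 h. Both Egln3 and P4ha2, a prolyl hydroxylase of HIF1A and one of collagen, remained too low to test. Egln3 was at 0.973 and 0.635 RPKM at 72 h, against 0.0393 and 0.0201 RPKM at 48 h, and P4ha2 at 1.68 and 0.533 RPKM, against 0.0504 and 0.0171 RPKM.

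Transporters and most enzymes had smaller changes, with Eno2 (3.05 ± 0.56) as the exception. Slc2a1, the main glucose carrier GLUT1, was at 63.4 and 56.6 RPKM in EV cells at 72 h, against 24.1 and 29.0 RPKM at 48 h (1.15 ± 0.26, limma adjusted p = 0.00764). Slc16a3, the lactate exporter MCT4, rose by 0.89 ± 0.17. In upper glycolysis, which prepares glucose for splitting, 7 of 9 members rose, among them the aldolase Aldoc (0.96 ± 0.16), the phosphofructokinases Pfkp (1.34 ± 0.24) and Pfkl (0.43 ± 0.15), the hexokinase Hk2 (0.57 ± 0.19), the aldolase Aldoa (0.56 ± 0.15) and the isomerase Tpi1 (0.64 ± 0.11). In lower glycolysis, which yields ATP, 3 of 6 rose, namely Pgk1 (0.72 ± 0.13), Pgam1 and Eno2. Gapdh (0.19), Eno1 (0.21) and Pkm (0.14) did not pass. Ldha, lactate dehydrogenase A, was at 555 and 553 RPKM at 72 h, against 336 and 357 RPKM at 48 h (0.68 ± 0.14, limma adjusted p = 0.00562). Pdk1, a pyruvate dehydrogenase kinase, had the smallest adjusted p of the group in limma (1.0 ± 0.15, adjusted p = 0.00299).

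Hif1a was the only member that fell in EV cells over time. It was at 17.6 and 19.4 RPKM at 72 h, against 26.3 and 28.2 RPKM at 48 h (-0.54 ± 0.11, limma adjusted p = 0.00498), without overlap. Egln1, the main HIF prolyl hydroxylase, rose by 0.97 ± 0.22. The 8 members with the smallest adjusted p, Pdk1, Aldoc, Bnip3, Tpi1, Vegfa, Higd1a, Pfkp and Bnip3l, kept their calls in each fit without 1 library. In place of 29, 16 members were called without EV_72h replicate 1 and 19 without EV_48h replicate 1, while calls over all genes were 649 and 1362 in place of 3347.

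The combined treatment showed a rise over time too. In EV+RANKL cells 18 of 34 members were higher and 1 was lower at 72 h than at 48 h (38.9% of all genes called, 17.4% as higher and 21.5% as lower), with a median of 0.47 against -0.02 for all genes. Of 9 tested osteoclast markers 8 were also higher at 72 h, and their part in this result was not tested. Bnip3 was at 66.0 and 46.3 RPKM at 72 h, against 14.2 and 15.9 RPKM at 48 h (1.81 ± 0.38, limma adjusted p = 0.00372). Aldoc was at 53.4 and 46.9 RPKM at 72 h, against 21.8 and 17.0 RPKM at 48 h (1.33 ± 0.16, limma adjusted p = 9.27e-04). Kdm3a, a histone demethylase and HIF target, rose by 0.79 ± 0.16, Pdk1 by 0.68 ± 0.15, Pfkfb4, which makes an activator of phosphofructokinase, by 0.45 ± 0.10, Eno2 by 2.31 ± 0.56 and Ak4 by 0.91 ± 0.24. Slc2a1 (0.76), Aldoa (0.48), Ldha (0.42), Slc16a3 (0.55) and Vegfa (1.16) rose as well, while Hk2 (0.41), Pfkl (0.29) and Pgk1 (0.31) did not pass. Hif1a was the member that fell, to 14.7 and 15.2 RPKM at 72 h, against 20.0 and 21.8 RPKM at 48 h (-0.46 ± 0.11, limma adjusted p = 0.00590). In place of 19, 4 members were called without EVRANKL_72h replicate 1 and 8 without either EV+RANKL library of 48 h, while calls over all genes were 1428, 2841 (without replicate 1 of 48 h) and 1423 (without replicate 2) in place of 4027. Among the named genes Aldoc, Kdm3a, Bnip3 and Pdk1 kept their calls in each fit without 1 library.

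With RANKL alone and with PBS, single members passed over time. In RANKL cells Aldoc was at 30.3 and 38.2 RPKM at 72 h, against 19.8 and 17.0 RPKM at 48 h (0.85 ± 0.16, limma adjusted p = 0.0164), while 6.03% of all genes were called (3.45% as higher, 2.58% as lower), and this call was lost without RANKL_72h replicate 2 (adjusted p = 0.0988) or RANKL_48h replicate 2 (0.206). Bnip3 was at 32.4 and 22.6 RPKM at 72 h, against 10.47 and 15.7 RPKM at 48 h, without overlap, but its log2 change of 1.02 ± 0.38 did not pass. Slc2a1 (0.22), Hk2 (0.23), Pfkl (0.09), Aldoa (0.22), Pgk1 (0.05), Ldha (0.07), Slc16a3 (0.10), Vegfa (0.38) and Hif1a (-0.32) did not pass either. Some members also passed without RANKL_72h replicate 1, in both directions, and some were higher without either PBS library of 72 h. Such shifts need not be particular to the members, as calls over all genes also moved between fits without 1 library. In PBS cells only Ak4 passed, with 18.5 and 12.0 RPKM at 72 h, against 4.88 and 6.23 RPKM at 48 h (1.29 ± 0.24, limma adjusted p = 0.0331), where 0.646% of all genes were called (0.145% as higher, 0.502% as lower). Its call was lost without PBS_72h replicate 1 (adjusted p = 0.445) and without either PBS library of 48 h (0.207 and 0.205), as well as without either EV+RANKL library of 72 h (0.0614 each), which enter through the shared variance. Of 34 members 33 had a positive change in PBS cells, with a median of 0.50 against 0.01 for all genes. Without PBS_72h replicate 2 there were 21 members higher and 0 lower, with 170 of all genes higher and 72 lower. Without PBS_72h replicate 1 there were 0 members, with 3 of all genes called. Whether the change over time differed between treatments was tested for EV and for RANKL against PBS, and 0 of 34 members passed in each.

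**Figure D3:**
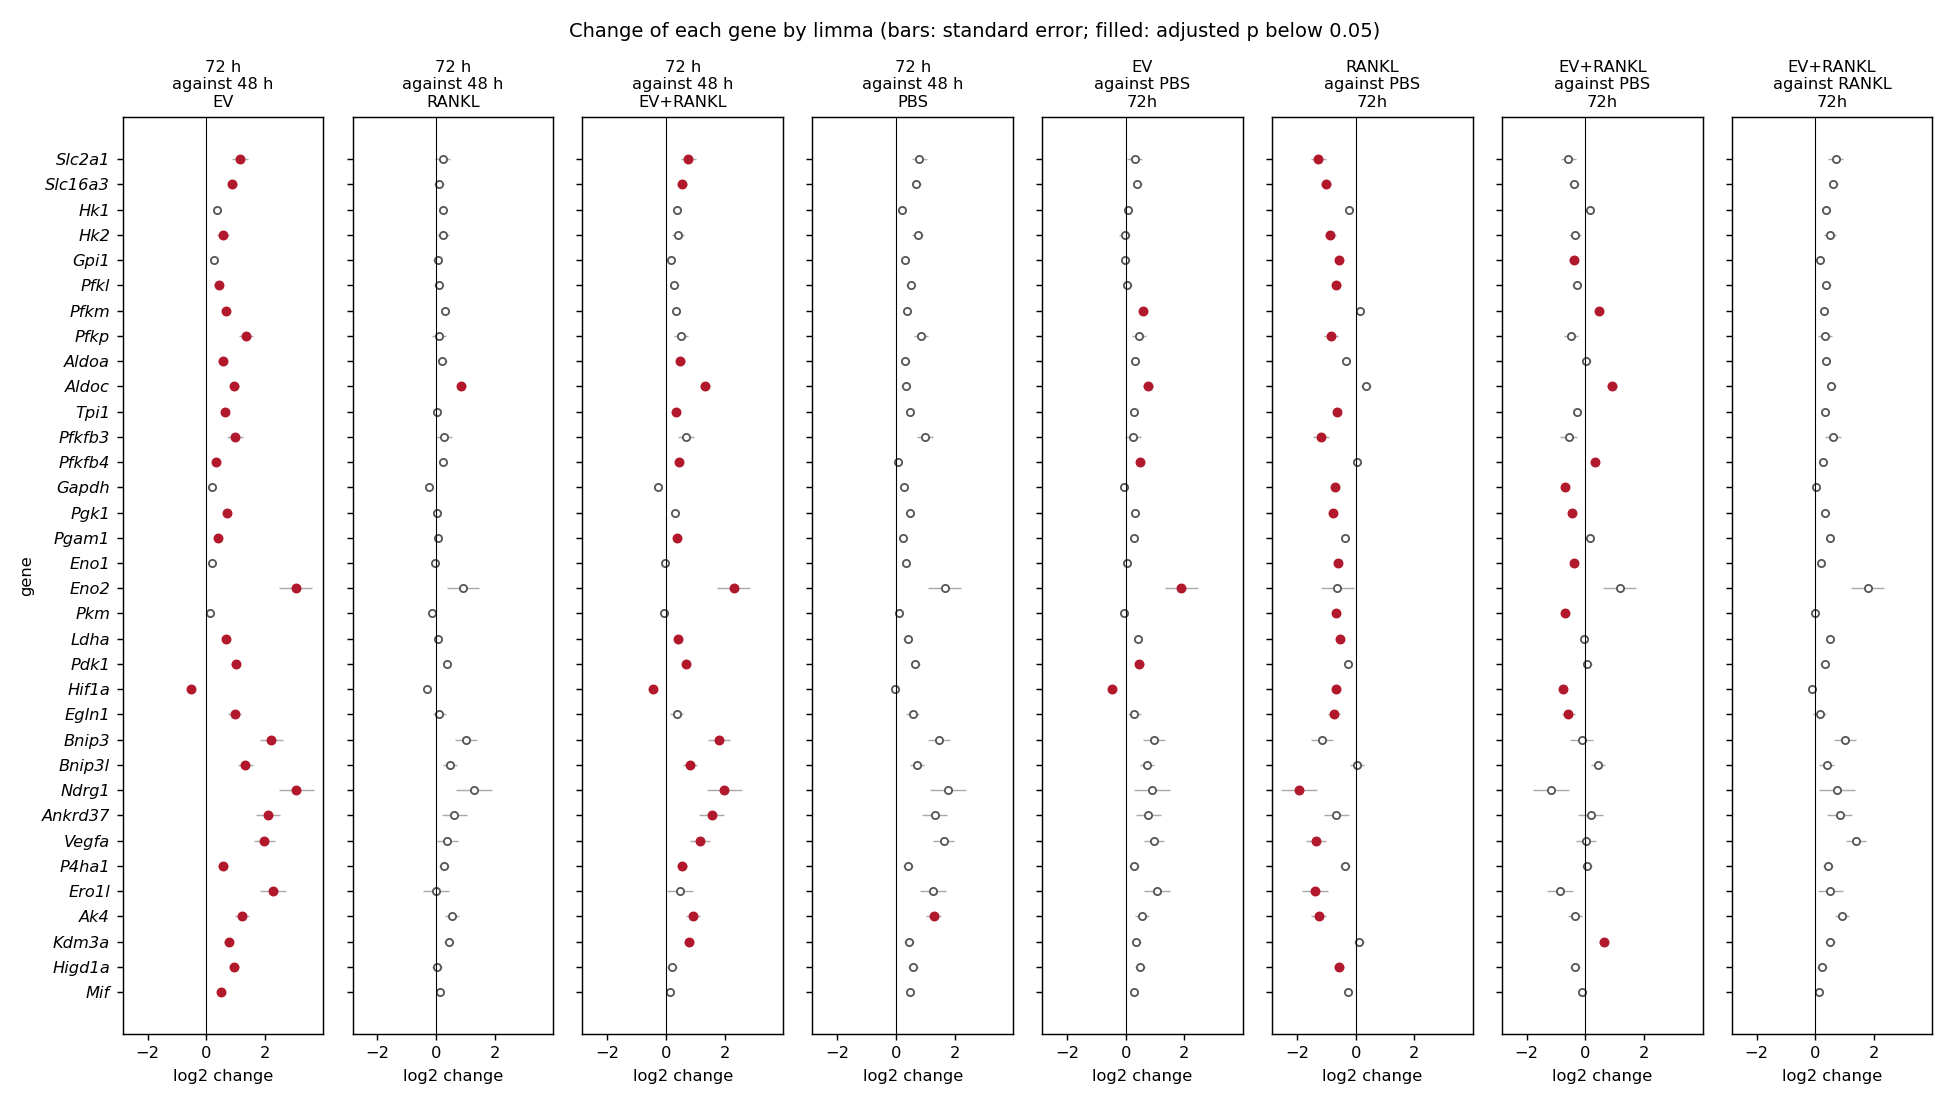
Log2 change of the 34 tested genes with its standard error in 8 comparisons, the 4 of time on the left and the 4 of treatment at 72 h on the right, with filled points for adjusted p below 0.05. Filled points lie right of 0 for 28 genes in EV cells over time and left of 0 for 20 genes in RANKL against PBS at 72 h.

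At 72 h RANKL cells had lower levels of most glycolytic genes than PBS cells. Of 34 members 20 were lower and 0 higher, where 18.9% of all genes were called, 9.73% as higher and 9.13% as lower. The median log2 change was -0.64, against -0.00021 for all genes. Lower members were found in each role: both transporters, 5 of 9 genes of upper glycolysis, 4 of 6 of lower glycolysis, 5 of 11 tested further HIF targets, both tested genes of the HIF subunit and hydroxylase role, Pfkfb3 and Ldha. All 9 tested osteoclast markers were higher in RANKL cells, and mitochondrial genes made up 26.9% and 24.2% of the RPKM sum in RANKL cells, against 20.3% and 20.8% in PBS cells. The part of these in the result was not tested.

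Slc2a1 was at 19.9 and 19.1 RPKM in RANKL cells, against 70.3 and 33.0 RPKM in PBS cells (-1.27 ± 0.26, limma adjusted p = 0.00527). Slc16a3 was at 13.4 and 15.8 RPKM in RANKL cells, against 34.4 and 26.8 RPKM in PBS cells (-1.01 ± 0.17, limma adjusted p = 0.00155). Pgk1, phosphoglycerate kinase, was at 305 and 290 RPKM in RANKL cells, against 575 and 451 RPKM in PBS cells (-0.77 ± 0.13, limma adjusted p = 0.00200). The groups did not overlap in these 3 genes. Tpi1 (-0.62 ± 0.11), Gapdh (-0.71 ± 0.13), Eno1 (-0.60 ± 0.11), Ak4 (-1.26 ± 0.24), Hk2 (-0.86 ± 0.19), Pfkl (-0.66 ± 0.15), Ldha (-0.54 ± 0.14) and Vegfa (-1.36 ± 0.35) also fell. Bnip3 (-1.14 ± 0.38, limma adjusted p = 0.0537) and Aldoa (-0.33 ± 0.15) did not pass. Eno1 has a near-identical retrogene copy, Eno1b, at 144 to 285 RPKM in the table, and reads may be split between the copies, as also for other glycolytic genes with many pseudogenes.

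Pkm was at 1675 and 1428 RPKM in RANKL cells at 72 h, against 2584 and 2320 RPKM in PBS cells (-0.66 ± 0.11, limma adjusted p = 0.00139). With quantile normalization this change was -0.26 and did not pass (adjusted p = 0.187). Hif1a was at 17.5 and 14.8 RPKM in RANKL cells, against 25.0 and 26.8 RPKM in PBS cells (-0.65 ± 0.11, limma adjusted p = 0.00139). It kept its call in each alternative run, also without PBS_72h replicate 1 and RANKL_72h replicate 2. The number of lower members was 9 without PBS_72h replicate 1, 11 without RANKL_72h replicate 2, and 5 without both of these libraries, the last a choice made after seeing the data. Calls over all genes were 1194, 738 and 522 in these fits, in place of 1954. Pgk1 (adjusted p = 0.0736), Eno1 (0.0736), Gapdh (0.107) and Ak4 (0.101) lost their calls without both.

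**Figure D4:**
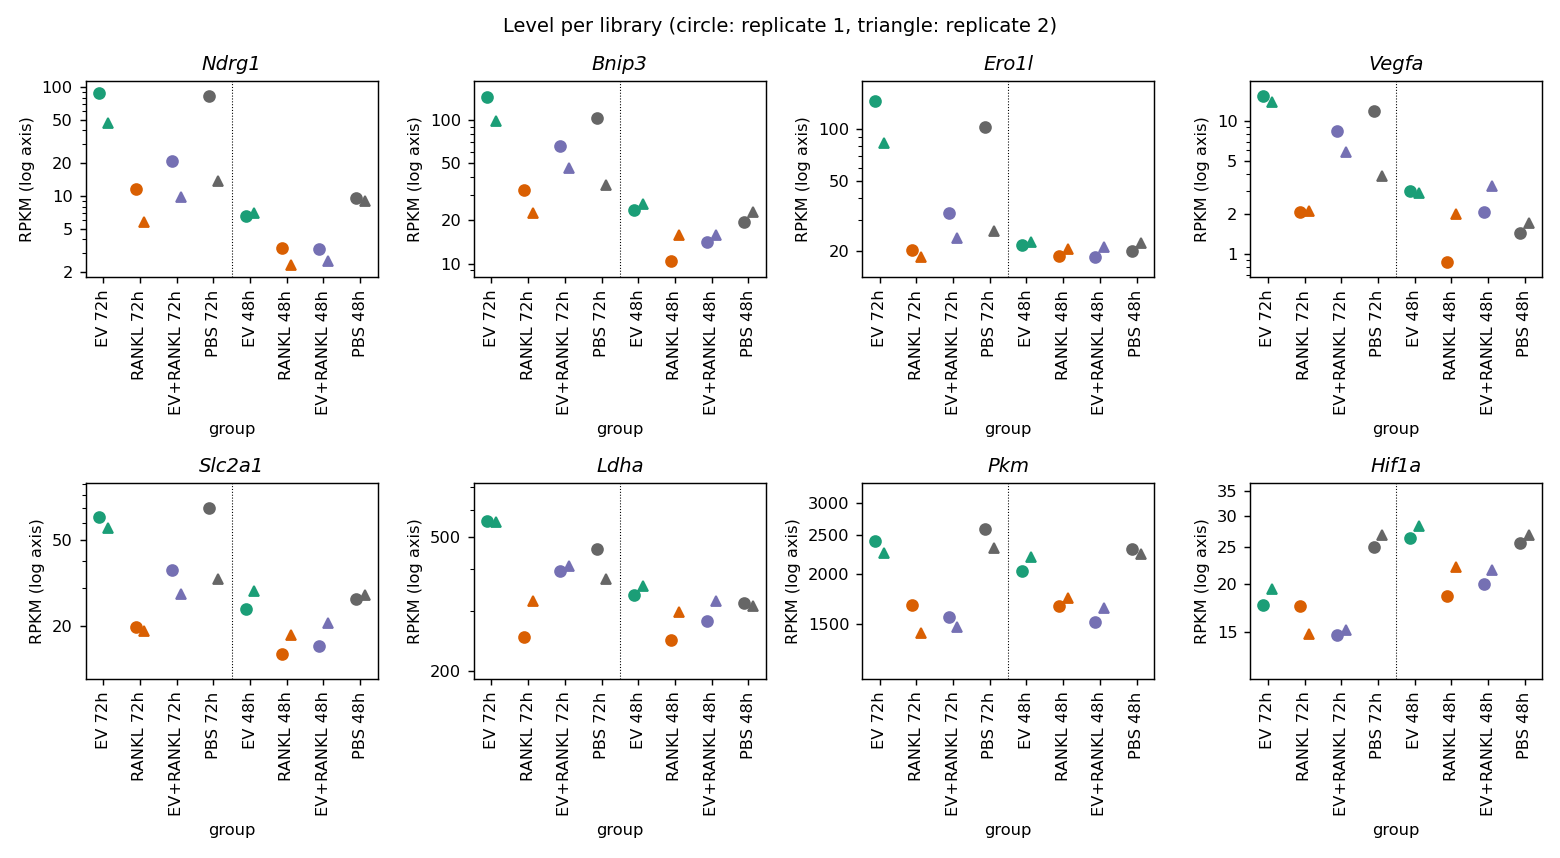
RPKM of 8 genes in each library on log axes, with 72 h left and 48 h right of the dotted line, circles for replicate 1 and triangles for replicate 2. Ndrg1, Bnip3, Ero1l and Vegfa are high in both EV libraries of 72 h and PBS replicate 1, while Hif1a is near 25 to 28 RPKM in the PBS libraries of both times and the EV libraries of 48 h and lower elsewhere.

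For vesicles against PBS at 72 h the share of members called was near that of all genes. The number of calls depended on which PBS or EV library of 72 h was kept. Of 34 members 5 were higher and 1 was lower in EV cells (18.3% of all genes called, 10.4% as higher and 7.83% as lower), with a median of 0.34 against 0.03 for all genes. Aldoc was at 49.8 and 41.0 RPKM in EV cells, against 30.1 and 23.0 RPKM in PBS cells (0.76 ± 0.16, limma adjusted p = 0.0129). Pfkfb4 (0.50 ± 0.10), the muscle phosphofructokinase Pfkm (0.59 ± 0.13), Eno2 (1.89 ± 0.56) and Pdk1 (0.47 ± 0.15) rose too. Hif1a was at 17.6 and 19.4 RPKM in EV cells, against 25.0 and 26.8 RPKM in PBS cells, and fell (-0.46 ± 0.11, limma adjusted p = 0.0155).

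Bnip3, Vegfa, Ndrg1 (0.89 ± 0.61) and Ankrd37 (0.77 ± 0.42) did not pass in EV against PBS at 72 h. Bnip3 was at 144 and 99.4 RPKM in EV cells, against 104 and 35.4 RPKM in PBS cells (0.97 ± 0.38, limma adjusted p = 0.0888), and the groups overlapped. Vegfa did not overlap but did not pass (0.97 ± 0.35, limma adjusted p = 0.0694). Ldha (0.42), Slc2a1 (0.31), Slc16a3 (0.40), Aldoa (0.32), Pgk1 (0.31), Pfkl (0.06) and Hk2 (-0.03) did not pass. Without PBS_72h replicate 1, 21 members were higher and 1 lower, with 1720 of all genes called in place of 1895. Without PBS_72h replicate 2 and without EV_72h replicate 1, 0 members were called, and calls over all genes also dropped, to 36 and 55. In these fits the changes were 0.47 and 0.51 for Pfkfb4, 0.57 and 0.62 for Aldoc, and -0.41 and -0.40 for Hif1a. Eno2 and Pdk1 also lost their calls without single libraries of other groups (adjusted p = 0.0501 to 0.0604) and without the filter on low values (0.111 and 0.103), and Pdk1 with quantile normalization (0.0561). Of 9 tested osteoclast markers 4 were higher in EV cells, and their part in this result was not tested. Both EV libraries of 72 h belong to the 5 with a high share of ribosomal protein genes and neither PBS library does, so that the vesicle effect and this division cannot be told apart.

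In EV+RANKL against PBS at 72 h members were called in both directions, at shares not above those of all genes. Of 34 members 7 were lower and 4 higher, where 41.9% of all genes were called (22.1% as lower, 19.9% as higher), with a median of -0.29 against -0.02 for all genes. Lower were the lower-glycolysis enzymes Pkm (-0.69 ± 0.11), Gapdh (-0.71 ± 0.13), Eno1 (-0.39 ± 0.11) and Pgk1 (-0.45 ± 0.13), the isomerase Gpi1 (-0.41), Egln1 (-0.58) and Hif1a. Higher were Aldoc (0.90 ± 0.16), Kdm3a (0.62 ± 0.16), Pfkm (0.46 ± 0.13) and Pfkfb4 (0.33). Gapdh was at 888 and 850 RPKM in EV+RANKL cells, against 1555 and 1293 RPKM in PBS cells (limma adjusted p = 0.00113). Aldoc was at 53.4 and 46.9 RPKM in EV+RANKL cells, against 30.1 and 23.0 RPKM in PBS cells (limma adjusted p = 7.99e-04). Hif1a was at 14.7 and 15.2 RPKM in EV+RANKL cells, against 25.0 and 26.8 RPKM in PBS cells (-0.75 ± 0.11, limma adjusted p = 1.71e-04). Neither Gapdh, nor Aldoc, nor Hif1a overlapped between the groups, and these 3 and Pkm kept their calls in each fit without 1 library. Kdm3a lost its call without EVRANKL_72h replicate 1 or PBS_72h replicate 2, Pfkm without EVRANKL_72h replicate 2 or PBS_72h replicate 2, and Eno1 and Pgk1 without EVRANKL_72h replicate 2 or PBS_72h replicate 1. In all, 5 members were lower and 2 higher without EVRANKL_72h replicate 1, 18 were lower and 1 higher without PBS_72h replicate 2, and 3 were lower and 3 higher without EVRANKL_72h replicate 2, with 2715, 2875 and 3431 of all genes called in place of 4348. Slc2a1 (-0.58), Slc16a3 (-0.39), Hk2 (-0.35), Pfkl (-0.29), Bnip3 (-0.13), Ldha (-0.04), Aldoa (0.03) and Vegfa (0.02) did not pass. All 9 tested osteoclast markers were higher in EV+RANKL cells, and their part in this result was not tested. Ribosomal protein genes made up 11.5% and 11.2% of the RPKM sum in EV+RANKL cells, against 9.81% and 8.64% in PBS cells. The combined treatment and this division therefore cannot be told apart.

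EV+RANKL against RANKL at 72 h, the effect of adding vesicles, had 0 of 34 members past the threshold in limma, while 19 had an unadjusted p below 0.05 and 1.83% of all genes were called (1.3% as higher, 0.531% as lower). Of the 34 changes 32 were positive, with a median of 0.38 against -0.02 for all genes. Vegfa was at 8.47 and 5.85 RPKM in EV+RANKL cells, against 2.08 and 2.12 RPKM in RANKL cells (1.38 ± 0.35, limma adjusted p = 0.0653). Bnip3 was at 66.0 and 46.3 RPKM in EV+RANKL cells, against 32.4 and 22.6 RPKM in RANKL cells (1.0 ± 0.38, limma adjusted p = 0.161). The groups did not overlap in either gene. Pgam1 had the smallest adjusted p (0.0566) at 0.51 ± 0.12. Slc2a1 (0.69), Slc16a3 (0.62), Hk2 (0.50), Ldha (0.50), Pfkl (0.37), Aldoa (0.36), Pgk1 (0.32) and Hif1a (-0.10) did not pass. Without RANKL_72h replicate 2, the RANKL library with a high share of ribosomal protein genes, 5 members were higher, while 1066 of all 10365 genes were higher in place of 135. Some members were also higher without a PBS or an EV library of 72 h, and without either EV library calls over all genes rose too. Without PBS_72h replicate 1 and RANKL_72h replicate 2 together 13 members were higher, with 1143 of all genes.

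At 48 h few members were called, at shares not above those of all genes. With vesicles 0 of 34 members were called by limma (1.29% of all genes, 0.608% as higher and 0.685% as lower), 3 had an unadjusted p below 0.05, and the median was 0.13 against 0.03 for all genes. Changes lay between -0.42 for Ndrg1 and 0.64 for Ak4. Adding vesicles to RANKL also gave 0 calls (0.434% of all genes, 0.27% as higher and 0.164% as lower), with 2 unadjusted p below 0.05. Of these 34 changes 30 were positive and 4 negative, with a median of 0.11 against 0.0022 for all genes. With RANKL alone 2 members fell and 0 rose, where 14.8% of all genes were called, 6.47% as higher and 8.29% as lower. The median change with RANKL was -0.21 against 0.06 for all genes, with 27 of 34 changes negative and 7 positive. Pkm was at 1663 and 1741 RPKM in RANKL cells, against 2300 and 2235 RPKM in PBS cells (-0.41 ± 0.11, limma adjusted p = 0.0194). Hif1a was at 18.6 and 22.1 RPKM in RANKL cells, against 25.5 and 26.9 RPKM in PBS cells (-0.35 ± 0.11, limma adjusted p = 0.0410). Neither gene overlapped between the groups. Pkm lost its call without any 1 of these 4 libraries, Hif1a without RANKL_48h replicate 1 or either PBS library of 48 h (adjusted p = 0.117 to 0.300), and both without the filter on low values. Hif1a also fell short without single libraries of EV at 48 h or of EV+RANKL (0.0554 to 0.0579). More members were lower without either PBS library of 72 h. Calls over all genes also moved between such fits, so this need not be particular to the members. With quantile normalization Pkm turned to 0.13 (limma adjusted p = 0.542). With EV+RANKL at 48 h, Pkm was at 1514 and 1644 RPKM, against 2300 and 2235 RPKM in PBS cells (-0.52 ± 0.11, limma adjusted p = 0.00341), and Pfkm rose by 0.50 ± 0.13 (22.1% of all genes called, 11.2% as higher and 10.9% as lower). Quantile normalization turned the change of Pkm to 0.093 (adjusted p = 0.659), and Pfkm lost its call without EVRANKL_48h replicate 1 or PBS_48h replicate 2. Ndrg1 had the largest change with RANKL at 48 h, at 3.32 and 2.35 RPKM in RANKL cells, against 9.69 and 8.96 RPKM in PBS cells, and did not pass (-1.44 ± 0.61, limma adjusted p = 0.138).

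Tests of the differences between effects called no member. The effect of vesicles with RANKL minus that without had 0 of 34 at either time (0.00965% of all genes each), and 0 and 1 unadjusted p below 0.05 at 48 h and 72 h. The RANKL effect at 72 h minus that at 48 h had a median of -0.42 over the members and 10 unadjusted p below 0.05 (0.0289% of all genes called). The EV effect at 72 h minus that at 48 h had a median of 0.26 and 2 unadjusted p below 0.05 (0.0193% of all genes called).

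Other genes of these pathways, a list of 80 with 63 tested, changed in part. In EV cells over time 28 rose and 5 fell, against the 32.3% of all genes called, among them Adm, the vasodilator adrenomedullin (2.37 ± 0.52), Stc2 (0.74) and Fam162a (limma adjusted p = 0.00401). In RANKL against PBS at 72 h 7 rose and 10 fell, where 9.73% of all genes were called higher and 9.13% lower. Eno3, the muscle enolase (2.59 ± 0.25), the pyruvate dehydrogenase kinase Pdk2 (0.97 ± 0.13), the dehydrogenase subunit Pdha1 (0.49 ± 0.10) and the mitochondrial pyruvate carrier subunit Mpc2 (0.47 ± 0.12) rose, while the glucose carrier Slc2a6 (-1.23 ± 0.16), the carbonic anhydrase Car12 (-1.01 ± 0.20) and Fam162a (-1.04 ± 0.24) fell. In EV+RANKL against PBS at 72 h 11 rose and 12 fell, where 19.9% of all genes were called higher and 22.1% lower, with Eno3 at 3.21 ± 0.25 and Slc2a6 at -1.78 ± 0.16. Eno1 was lower and Eno3 higher in both of these comparisons, which share the PBS libraries.

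Outside the group, the 7158 genes that reached 5 RPKM in 2 or more libraries were ranked by how closely their log2 levels followed the mean of the 34 tested members over the 16 libraries. The closest were Fam162a, a mitochondrial protein gene known as a HIF target (Pearson's r = 0.973), Gys1, muscle glycogen synthase (0.964), and Gm4735, typed as a processed pseudogene by GENCODE (0.964). Fam162a was at 219 and 155 RPKM in EV cells, 64.5 and 53.3 RPKM in RANKL cells, 89.6 and 74.9 RPKM in EV+RANKL cells, and 169 and 88.0 RPKM in PBS cells at 72 h. Fam162a and Gys1 were also on the list of other pathway genes. The 16 points share their groups, so r describes these libraries only.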

How the data were processed

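RNA-seq was done with a TruSeq mRNA kit on total RNA for 16 RAW264.7 libraries, per the labels' protocols. FastQC, HISAT2 and Partek were used and the human builds GRCh38 and hg38 are named, per the submitters' processing notes, although the gene names are mouse symbols. How reads were counted, and on which mouse annotation, is not given in the sources used here. The authors' deposited values were read as log2(RPKM + 1). No source states this: with base 2, 71.9% of 54829 low values lay within 0.05 of a whole multiple of 1 unit per gene and library. The share was 68.5% of 45361 values with base e and 64.9% of 25808 with base 10, so it separated the bases little. The median distance was 3.51e-06 with base 2, against 0.0116 with base e and 0.0196 with base 10. Depth was estimated from 670 single-exon genes of GENCODE M21. The column of 1 EV+RANKL library of 48 h lacked the letter for RANKL and was placed in its group by the rest of its name, and is called replicate 2.

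All 16 libraries entered 1 limma 3.58.1 fit (R 4.3.3) with 8 group means and a variance trend on the deposited log2 scale. The test covered genes that reached 1 RPKM in 2 or more libraries, with Benjamini-Hochberg adjustment over 10365 genes and a threshold of 0.05 in each of 16 comparisons. On this scale the change of a gene near or below 1 RPKM comes out too small. Of the members past the threshold, the 8 of smallest adjusted p per comparison are named (5 for differences between effects), with 11 landmark genes; other members named for a wide range or a role were chosen after their values were seen, as were the promoters printed. Members and lists were chosen with earlier results of these data known. Alternatives were quantile normalization, no filter, 0.1 in place of 1 added, no variance trend, replicate number as a block, and each library left out in turn, where the lone library of a group is assumed to vary like the others. Leaving out PBS_72h replicate 1 and RANKL_72h replicate 2 together was added after seeing the data.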

Additional observations from a re-analysis of the deposited data

How the results depend on the processing

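Dropping the filter on low values left 13 members called for RANKL against PBS at 72 h, 8 for 72 h against 48 h with EV+RANKL, and 0 for RANKL against PBS at 48 h and for time in PBS and RANKL cells. Of the 19934 genes then tested, 1565, 3592, 1334, 37 and 164 were called in these comparisons, in the same order. In the main fit 1954, 4027, 1530, 67 and 625 of 10365 were called. Quantile normalization gave 1 member for RANKL against PBS at 48 h and 2 for time in PBS cells, and turned Pkm to 0.13 with RANKL and 0.093 with EV+RANKL at 48 h. Over all genes it gave 1571 calls for RANKL against PBS at 48 h and 61 for time in PBS cells. Another added constant and no variance trend moved no count of members past 1.5 times. With the replicate number as a block, 4 members were called for EV+RANKL against PBS at 48 h, 1 for EV+RANKL against RANKL at 72 h and 3 for time in PBS cells. Over all genes, calls in these comparisons rose to 2723, 313 and 179, from 2288, 190 and 67. No other count of members moved past 1.5 times with the block. Labels do not say that the numbers mark a shared batch, and differences between replicates correlated between compared groups at r of -0.04 to 0.48.

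Without 1 library each, members called ranged from 0 to 4 for RANKL and from 1 to 4 for EV+RANKL against PBS at 48 h. At 72 h they ranged from 0 to 22 for EV, 9 to 25 for RANKL and 6 to 19 for EV+RANKL against PBS, and 0 to 5 for EV+RANKL against RANKL. Over time they ranged from 0 to 21 with PBS, 16 to 30 with EV, 0 to 3 with RANKL and 4 to 25 with EV+RANKL, and from 0 to 1 for the difference of EV effects between times. Without PBS_72h replicate 1 and RANKL_72h replicate 2 together, chosen after seeing the data, they were 24 for EV and 5 for RANKL against PBS at 72 h, 13 for EV+RANKL against RANKL at 72 h, 4 for RANKL and 5 for EV+RANKL against PBS at 48 h, 0 for time in PBS and in RANKL cells, 27 for time in EV+RANKL cells, and 8 for the difference of EV effects between times. Calls over all genes also moved between fits without 1 library. Without both libraries they moved in the same direction as the member counts in each comparison listed. They rose for the difference of EV effects between times, so the 8 members there cannot be set apart from a rise over all genes. A shift in any of these counts need not be particular to the members. The causes of the shifts were not tested. Of 44 named member results, 25 passed in every fit without 1 library. Levels under about 0.163 RPKM in a transcript of 1 kb rest on 3 reads or fewer, which limits the low values of Egln3 and P4ha2.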
